A study of Rattus norvegicus with 8 samples.

Results

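The genes described here build and regulate the contractile apparatus and actin cytoskeleton of smooth muscle. The list of 39 was given by name, and a member entered through probe sets annotated to its symbol alone, with the brightest probe set taken for each gene. Of the 39, Myl6 had no probe set annotated to it alone, and the other 38 all lay above the filter on dim probe sets, so 38 of 11372 genes tested are described.

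Rat aortic smooth muscle cells were isolated from male Sprague-Dawley rats and measured on 8 Affymetrix arrays, 2 in each of 4 groups. Cells received siGiver, an siRNA against the long non-coding RNA Giver, or siNTC, a non-targeting siRNA, for 48 h. They were then exposed to the vasoconstrictor peptide angiotensin II (Ang II, 100 nM) or, as its vehicle control, to phosphate-buffered saline (PBS), in both cases for 3 h. The groups were therefore siGiver with Ang II, siNTC with Ang II, siGiver with PBS and siNTC with PBS, and all cells had been transfected with an siRNA. All were cultured, passaged primary cells, and the labels give neither the number of animals nor whether the arrays of a group stand for separate cultures. The p-values therefore speak of the scatter among these arrays, which may be technical. Giver itself was not analysed here.

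Smooth muscle contracts when myosin II filaments pull on actin filaments that carry tropomyosin, calponin and caldesmon. Myosin light chain kinase switches the myosin on, myosin phosphatase switches it off, and the GTPase RhoA with its ROCK kinases holds the phosphatase back. The actin filaments end in dense plaques of vinculin, talin, filamin and alpha-actinin. Transcription of many of these genes depends on serum response factor (SRF), which binds DNA elements called CArG boxes together with myocardin or the myocardin-related factors, and aortic smooth muscle cells lower them as they leave the contractile state in culture.

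The values are log2 expression values after RMA, a method that places all arrays on a common scale. They compare arrays for 1 gene and not amounts of RNA between genes. The levels below therefore only place probe sets on the arrays' scale. All 8 smooth muscle markers (Acta2, Tagln, Cnn1, Myh11, Smtn, Lmod1, Myocd and Des, of which only Myocd is not itself a member) stood above the filter value of 4.81. All 7 endothelial markers with a probe set (among them Pecam1, Kdr and Vwf) stood below it. Of 8 macrophage markers, Ptprc, Csf1r, Itgam, Adgre1 and Cd163 stood below it and Cd68, Aif1 and Cd14 above it. All 7 fibroblast markers with a probe set also stood above it. Mean levels of the 38 members ran from 7.39 (Rock1) to 14.05 (Tagln), with a median of 11.66 against 8.07 over all genes tested, and the highest value of any probe set on any array was 14.61. Every difference below comes from 1 limma model over all 8 arrays, given with its standard error (SE), and it is said to have passed when its Benjamini-Hochberg adjusted p over all 11372 genes was under 0.05. In bulk RNA, fewer cells of a type and less RNA per cell cannot be told apart.

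**Figure D1:**
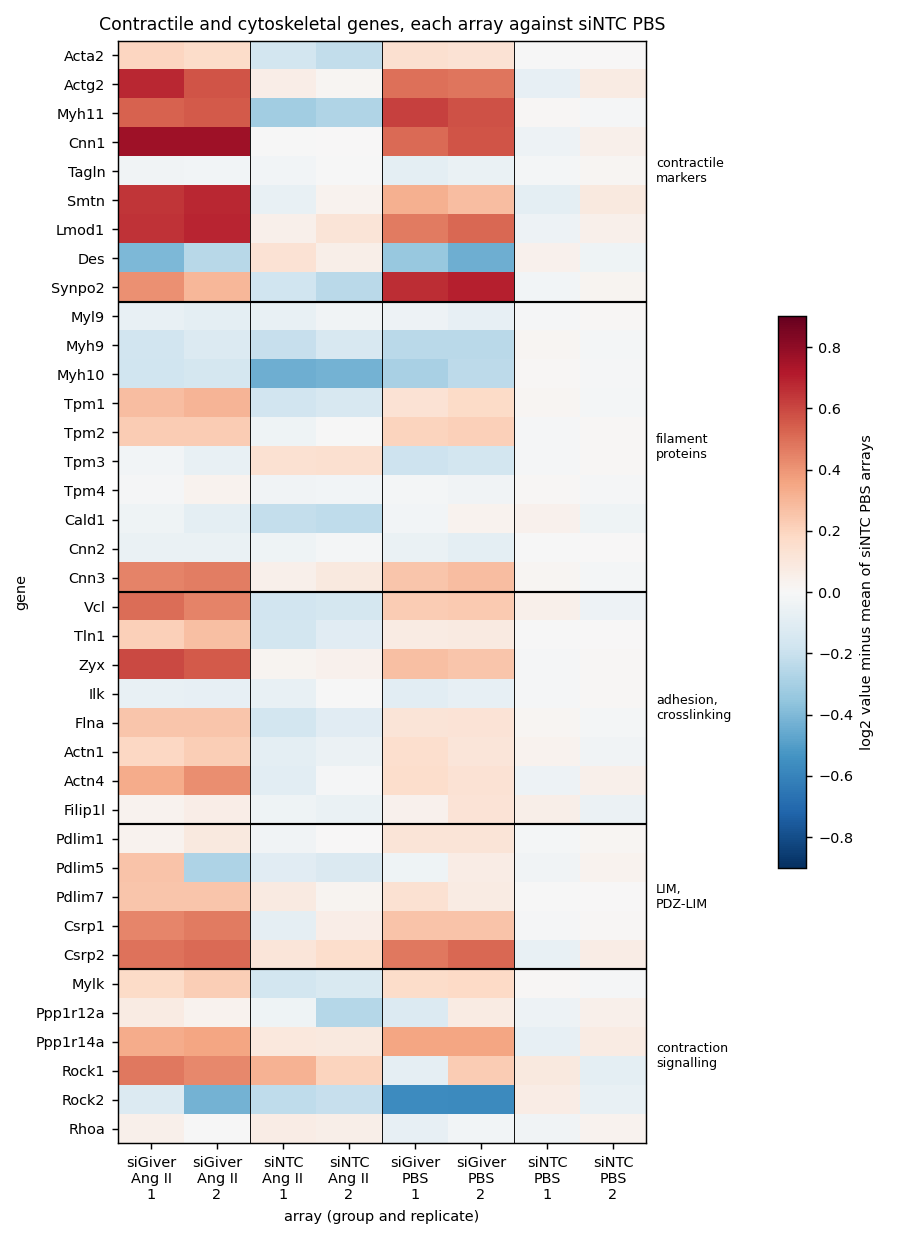
Heat map of the 38 measured genes (rows, in 5 role groups) on the 8 arrays (columns), coloured by log2 value minus the mean of the siNTC PBS arrays. The siGiver columns are red for most contractile markers, with Des blue and Tagln pale, and the siNTC Ang II columns are pale or blue for most genes.

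The first comparison asked how cells given Giver siRNA differed from control cells without Ang II. In PBS, 21 of the 38 members differed, 16 higher and 5 lower in siGiver cells. Over all genes tested 35.1% passed, 16% higher and 19.1% lower. The members' median difference was 0.12 log2, against -0.0047 over all genes tested. With Ang II on both sides, 25 of 38 members differed, 23 higher and 2 lower, where 44.3% of all genes passed, 19.5% higher and 24.8% lower. The median difference was then 0.25 for the members and -0.026 for all genes tested. Of the members, 16 were higher in both comparisons, which is all 16 of those higher in PBS and 16 of the 23 higher with Ang II. Over all genes, 1352 were higher in both, of 1817 in PBS and 2219 with Ang II. The PBS and Ang II comparisons use different arrays, but 1 fit gives the spread of a gene for both. Differences were small: 2 members in PBS and 5 with Ang II reached 1.5-fold, where 4.35% and 6.64% of all genes did.

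Of 9 markers of the differentiated contractile state, the same 7 were higher in siGiver cells in PBS and with Ang II, 1 (Des) was lower in both and Tagln passed in neither. Myh11, the smooth muscle myosin heavy chain, had log2 values of 11.60 and 11.62 in siGiver Ang II arrays, 10.76 and 10.80 in siNTC Ang II arrays, 11.69 and 11.64 in siGiver PBS arrays and 11.08 and 11.06 in siNTC PBS arrays. Both siGiver groups lay above both siNTC groups without overlap. Within 1 treatment, with 2 arrays per group, lack of overlap in either direction was common. It held for 67.2% of all genes and 84.2% of members in PBS, and for 72.4% and 86.8% with Ang II. The difference was 0.83 ± 0.044 with Ang II (1.78-fold, adjusted p = 1.46e-05) and 0.59 ± 0.044 in PBS (1.51-fold, adjusted p = 9.50e-05). Cnn1, the calponin of smooth muscle, which binds actin and damps myosin's ATPase, stood at 11.57 and 11.57 in siGiver Ang II arrays and 10.80 and 10.81 in siNTC Ang II arrays. In PBS its values were 11.32 and 11.38 in siGiver and 10.76 and 10.85 in siNTC arrays. The siNTC arrays thus lay in 1 narrow band with either treatment, below all siGiver arrays, and the difference was 0.76 ± 0.049 with Ang II and 0.54 ± 0.049 in PBS.

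Synpo2, an actin-bundling protein of the Z-disc and dense bodies, had values of 9.85 and 9.74 in siGiver Ang II arrays, 9.26 and 9.19 in siNTC Ang II arrays, 10.10 and 10.13 in siGiver PBS arrays and 9.41 and 9.46 in siNTC PBS arrays. All siGiver arrays lay above all siNTC arrays, and the difference was 0.57 ± 0.054 with Ang II and 0.68 ± 0.054 in PBS (1.60-fold, adjusted p = 0.000129). With its probe sets averaged, the Synpo2 difference in PBS was 0.40 and still passed. Smtn encodes smoothelin, a marker of fully contractile cells. It had 9.16 and 9.19 in siGiver Ang II arrays and 8.45 and 8.55 in siNTC Ang II arrays, with 8.83 and 8.79 in siGiver PBS arrays and 8.42 and 8.60 in siNTC PBS arrays. The siGiver arrays lay above the siNTC arrays of both treatments, and the difference was 0.68 ± 0.068 with Ang II and 0.30 ± 0.068 in PBS. In PBS it no longer passed when its probe sets were averaged, nor without siGiver PBS replicate 1 or siNTC PBS replicate 1.

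Lmod1, a leiomodin that starts new actin filaments, was higher by 0.59 ± 0.053 with Ang II and 0.49 ± 0.053 in PBS. Actg2, the gamma actin of smooth muscle, was higher by 0.58 ± 0.065 and 0.49 ± 0.065. Acta2, the alpha actin of vascular smooth muscle, stood at 11.89 and 11.87 in siGiver Ang II arrays, 11.54 and 11.48 in siNTC Ang II arrays, 11.84 and 11.83 in siGiver PBS arrays and 11.70 and 11.70 in siNTC PBS arrays. No siGiver array overlapped a siNTC array. Acta2 was higher by 0.37 ± 0.044 with Ang II and by 0.14 ± 0.044 in PBS, where the adjusted p was 0.0445 and the call was lost when any 1 of the 4 PBS arrays was left out. Muscle actins are nearly identical in their coding sequence, as parts of the tropomyosins are, and the skeletal actin gene Acta1 was also higher, by 0.89 and 0.53. How far probe sets read such relatives was not tested.

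Tagln (SM22 alpha, an actin-binding protein) did not follow its group. It stood at 14.05 and 14.05 in siGiver Ang II arrays, 14.05 and 14.08 in siNTC Ang II arrays, 14.00 and 14.02 in siGiver PBS arrays and 14.06 and 14.10 in siNTC PBS arrays. Its differences, -0.01 ± 0.043 with Ang II and -0.07 ± 0.043 in PBS, did not pass. It was the brightest member, with a mean of 14.05 against 14.61 for the highest value on any array. Whether its level limited these differences was not tested. Des (desmin, the muscle intermediate filament protein) ran the other way, at 7.56 and 7.72 in siGiver Ang II arrays and 8.10 and 8.02 in siNTC Ang II arrays, and at 7.63 and 7.53 in siGiver PBS arrays and 8.01 and 7.93 in siNTC PBS arrays. All 4 siGiver values lay below all 4 siNTC values, for differences of -0.42 ± 0.068 (adjusted p = 0.00189) and -0.39 ± 0.068 (adjusted p = 0.00368).

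The DNA just upstream of the members was searched for CArG boxes, since these are the sites through which SRF acts. RefSeq's table for the rat build GRCr8 held 39 windows, each from 250 bases before to 50 after a transcription start, for 34 of the 39 members, and none for Myh11, Tagln, Lmod1, Myl9 or Actn4. A box was read as 2 C, 6 letters that are A or T and 2 G, a pattern that reads the same way on both strands. No other motif was searched. An exact box stood in 1 member window (Cnn2), 2.56% of them, against 1.64% of the 33469 windows of all genes. With 1 other letter allowed among the 6, there were 7 member windows of 5 genes (17.9%), against 9.42% of all windows, which is 14.7% of the 34 members with a window against 10.1% of all genes. The 4 of these genes with the highest siRNA difference are shown, so that boxes can be set beside values, 5′ to 3′ on the gene's strand with the box in capitals.
Zyx, chr4:72203750-72203803, plus strand: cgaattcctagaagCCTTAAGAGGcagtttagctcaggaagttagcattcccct
Acta2, chr1:241172548-241172667, minus strand: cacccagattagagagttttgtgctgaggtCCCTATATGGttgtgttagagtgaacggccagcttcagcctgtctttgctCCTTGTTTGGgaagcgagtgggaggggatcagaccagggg
Filip1l, chr11:56646589-56646652, minus strand: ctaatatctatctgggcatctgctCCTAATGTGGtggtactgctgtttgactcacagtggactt
Cnn2, chr7:10370344-10370413, minus strand: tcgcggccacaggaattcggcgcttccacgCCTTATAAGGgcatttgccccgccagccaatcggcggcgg

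Acta2 has boxes that begin 134 and 84 bases before its start, Zyx 1 at 236 (and another 99 before a second start), Filip1l at 226 and Cnn2 at 71. Averaged over both treatments, the siGiver minus siNTC difference was 0.40 for Zyx, 0.25 for Acta2, 0.09 for Filip1l and -0.05 for Cnn2, and -0.18 for Tpm3, the fifth gene. The exact box therefore lay before a gene that passed in no comparison, and members with a box in this window included genes higher and lower in siGiver cells. A match in these letters is no measurement of binding, and Cnn1, with a window but no match, says nothing of boxes elsewhere.

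**Figure D2:**
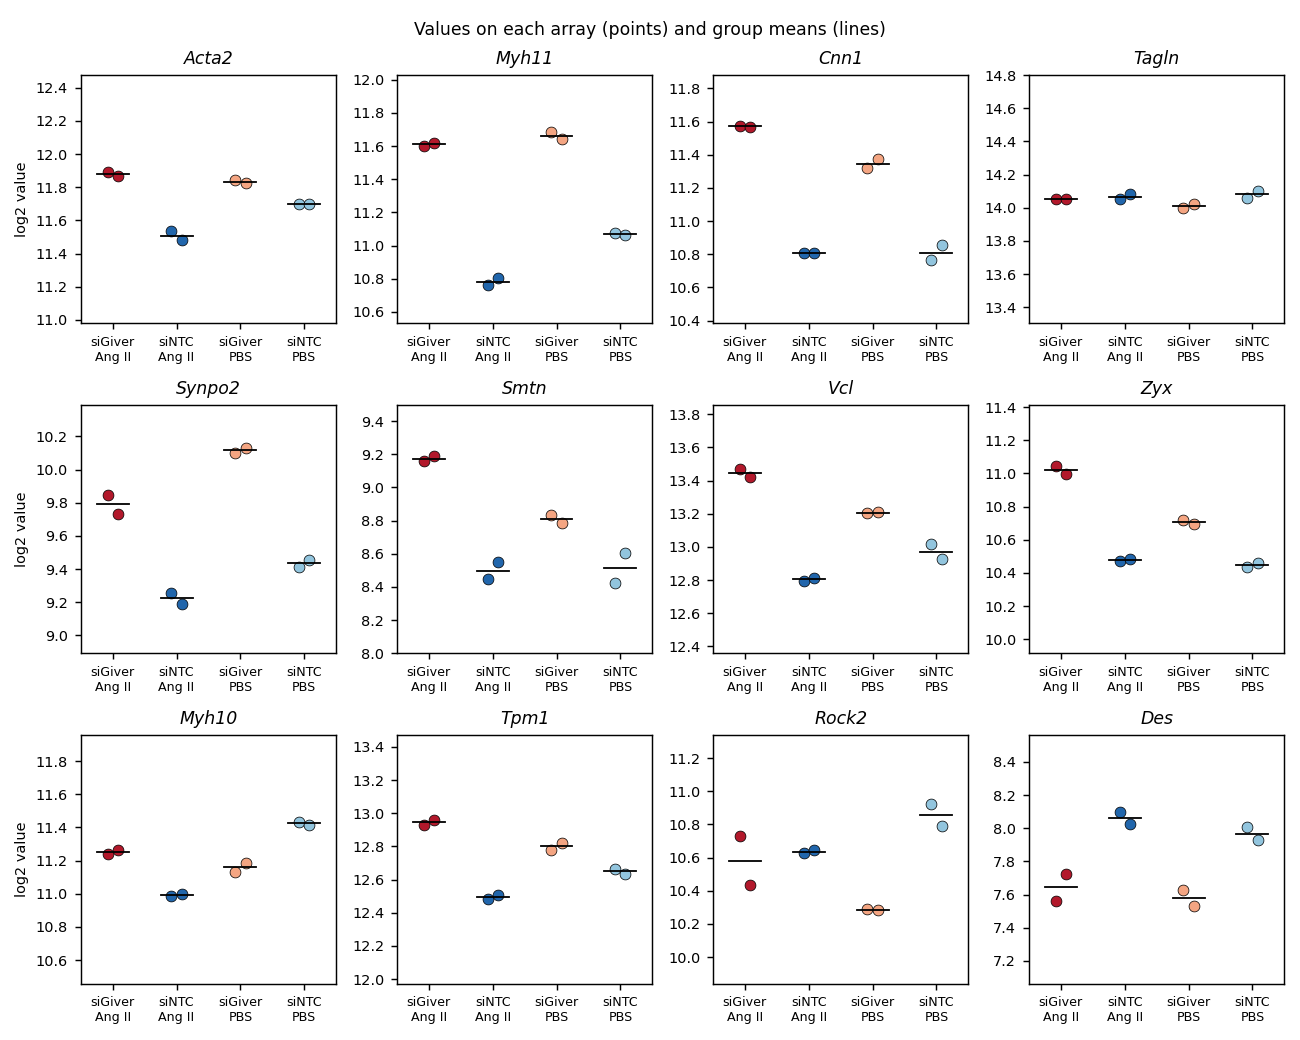
Log2 values of 12 genes on each array (points) with group means (lines), in the order siGiver Ang II, siNTC Ang II, siGiver PBS and siNTC PBS; every panel spans 1.5 log2 units. Myh11, Cnn1 and Synpo2 separate the siRNA arms in both treatments, Des does so in the opposite direction, and Tagln is flat near 14.05.

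Among the filament proteins found in most cell types, directions were mixed, and 6 of 10 differed in each comparison. In PBS, 3 were higher and 3 lower in siGiver cells, and with Ang II, 5 were higher and 1 was lower. The tropomyosins lie along actin and gate myosin's access to it. Of the 4 genes, Tpm1 was higher by 0.45 ± 0.043 with Ang II and 0.15 ± 0.043 in PBS, and Tpm2 by 0.25 ± 0.042 and 0.21 ± 0.042. The Tpm1 call in PBS was lost when any 1 of the 4 PBS arrays was left out, and Tpm2 did not pass with Ang II when its probe sets were averaged. Tpm3 was lower in both comparisons. Its values were 11.41 and 11.36 in siGiver Ang II arrays, 11.57 and 11.58 in siNTC Ang II arrays, 11.25 and 11.26 in siGiver PBS arrays and 11.42 and 11.44 in siNTC PBS arrays, which gave -0.19 ± 0.043 and -0.17 ± 0.043, and neither passed when its probe sets were averaged. The Tpm3 call with Ang II was also lost without siGiver Ang II replicate 2, and that in PBS without either siGiver PBS array or siNTC PBS replicate 2. Tpm4 stood at 0.04 and -0.02 and did not pass. The calponins divided likewise, with Cnn3 higher by 0.39 ± 0.044 and 0.26 ± 0.044, while Cnn2 stood at -0.03 and -0.07 and did not pass.

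Myh9 and Myh10 encode non-muscle myosin heavy chains. Myh10 stood at 11.24 and 11.27 in siGiver Ang II arrays, 10.99 and 11.00 in siNTC Ang II arrays, 11.13 and 11.19 in siGiver PBS arrays and 11.43 and 11.41 in siNTC PBS arrays. The siGiver arrays were thus the higher ones with Ang II and the lower ones in PBS. The Myh10 difference was 0.26 ± 0.044 with Ang II and -0.27 ± 0.044 in PBS. By the brightest probe sets, Myh10 was the 1 member that passed in opposite directions in the pair of comparisons. Of all 11372 genes, 73 did so. Rock2 did so in some dimmer probe sets, such as 1 at -0.30 in PBS and 0.26 with Ang II, and when its probe sets were averaged. Myh9 was also lower in PBS, with -0.24 ± 0.046, and with Ang II it stood at 0.03 and did not pass. Cald1 (caldesmon, an actin and calmodulin binding protein) was higher by 0.16 ± 0.049 with Ang II and stood at 0.00 in PBS. The Cald1 call was lost when any 1 of the 4 Ang II arrays was left out. It was also lost when its probe sets were averaged (0.08), and its dimmer set (mean level 12.44) stood at -0.003. Myl9, the regulatory light chain, stood at -0.03 and -0.06 and passed in neither.

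Of 8 adhesion and crosslinking genes, 6 were higher in siGiver cells with Ang II and 2 were higher in PBS, and none was lower. Vcl, the vinculin that ties talin to actin, was higher by 0.64 ± 0.048 with Ang II (1.56-fold) and 0.23 ± 0.048 in PBS, where averaging its probe sets gave 0.41 for Vcl. Zyx, whose product zyxin gathers at adhesions under tension, was higher by 0.54 ± 0.043 and 0.26 ± 0.043. With Ang II the alpha-actinins Actn4 and Actn1 were higher by 0.43 ± 0.057 and 0.27 ± 0.046, the actin crosslinker Flna by 0.39 ± 0.045 and the integrin activator Tln1 by 0.37 ± 0.046. In PBS these 4 stood between 0.08 and 0.14 by their brightest probe sets and did not pass. A dimmer Actn1 set (mean level 11.19) was higher in PBS by 0.21 and passed among all probe sets. Ilk, a pseudokinase of adhesions, and Filip1l passed in neither, with Ilk at -0.03 and -0.09 and Filip1l at 0.09 and 0.08.

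All 5 LIM and PDZ-LIM genes had positive differences, and 2 passed in PBS and 3 with Ang II. Of all 11372 genes, 5561 were positive in PBS and 5114 with Ang II. Csrp2, a LIM protein that bridges SRF and GATA factors, was higher by 0.37 ± 0.056 with Ang II and 0.50 ± 0.056 in PBS, and its relative Csrp1 by 0.46 ± 0.054 and 0.26 ± 0.054. Pdlim7 was higher with Ang II (0.20 ± 0.046), a call lost without siNTC Ang II replicate 2, and stood at 0.10 in PBS, where it did not pass. A dimmer Pdlim7 set (mean level 7.03) was higher by 0.37 with Ang II and 0.40 in PBS, and both passed among all probe sets. Pdlim1 (0.08 and 0.12) and Pdlim5 (0.11 and 0.02) did not pass. The arrays of Pdlim5's brightest probe set lay far apart with siGiver and Ang II, at 10.87 and 10.34.

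Of 6 contraction signalling genes, Mylk and Ppp1r14a were higher in siGiver cells in both comparisons. Mylk, the myosin light chain kinase, was higher by 0.34 ± 0.043 with Ang II and 0.17 ± 0.043 in PBS, and neither passed when its probe sets were averaged. In PBS the Mylk call was also lost without either siGiver PBS array or siNTC PBS replicate 2. Ppp1r14a encodes CPI-17, an inhibitor of myosin phosphatase, and was higher by 0.25 ± 0.056 and 0.36 ± 0.056. Rock2, a RhoA effector kinase, stood at 10.73 and 10.43 in siGiver Ang II arrays, 10.63 and 10.65 in siNTC Ang II arrays, 10.29 and 10.29 in siGiver PBS arrays and 10.92 and 10.79 in siNTC PBS arrays. It was lower in PBS, at -0.57 ± 0.093 (adjusted p = 0.00284), and with the probe sets of Rock2 averaged at -0.24, which still passed. With Ang II the arrays overlapped and the difference of -0.05 did not pass. With the probe sets of Rock2 averaged, that difference was positive and passed. Rock1 (0.19 and 0.07), the phosphatase targeting subunit Ppp1r12a (0.20 and -0.02) and Rhoa (-0.04 and -0.05) passed in neither.

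**Figure D3:**
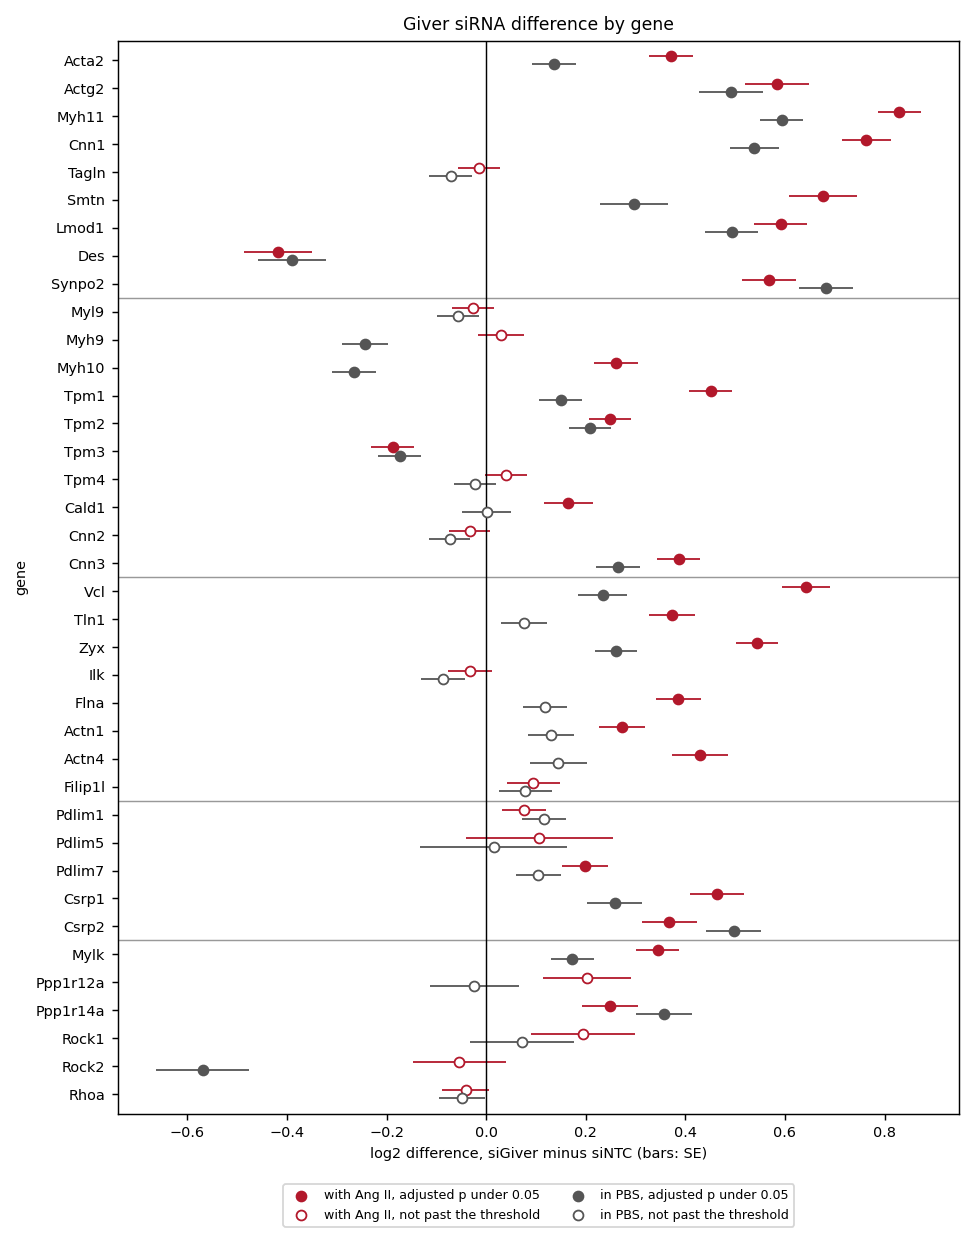
Log2 difference between siGiver and siNTC cells for each gene, with Ang II (red) and in PBS (grey); bars are SE and filled points passed at an adjusted p under 0.05. Vcl and Zyx lie further right with Ang II, Myh10 crosses zero between the treatments, and Des and Tpm3 are negative in both.

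In PBS, 16 of the 21 member calls held under all 8 other settings and with each single array left out, and with Ang II 20 of 25 did. No fibroblast marker passed between the siRNA arms in PBS by limma, and with Ang II 3 were higher and 1 lower. In PBS 1 of 7 had an unadjusted p under 0.05, as had 5116 of all 11372 genes. Mean levels of the 7 fibroblast markers were 7.97 to 8.03 on siGiver Ang II arrays, 7.82 to 7.88 on siNTC Ang II arrays, 8.13 to 8.14 on siGiver PBS arrays and 8.07 to 8.08 on siNTC PBS arrays, and their part in the members' differences was not tested. Of 7 reference genes, 1 was lower in siGiver cells in PBS and 2 with Ang II, with medians of 0.0097 and -0.030.

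The second question was what Ang II did to these genes within each arm. In siNTC cells, 4 of 38 members changed in 3 h and all 4 fell, where 6.14% of all genes passed, 3.97% higher and 2.17% lower. The median was -0.032 log2 for the members and 0.0059 for all genes tested, and none reached 1.5-fold (0.844% of all genes did). Myh10 had 10.99 and 11.00 in siNTC Ang II arrays, against 11.43 and 11.41 in siNTC PBS arrays, a change of -0.43 ± 0.044 (adjusted p = 0.00208). That call held in every setting run and with any single array of these groups left out. Myh11 changed by -0.29 ± 0.044, Cald1 by -0.22 ± 0.049 and Acta2 by -0.19 ± 0.044 (adjusted p = 0.00992, 0.0406 and 0.0467). Cald1 had 13.17 and 13.16 in siNTC Ang II arrays and 13.43 and 13.35 in siNTC PBS arrays. The Acta2 and Cald1 calls were lost when any 1 of the 4 siNTC arrays was left out, and the Myh11 call without either siNTC Ang II array or siNTC PBS replicate 1. Averaging probe sets also ended the Myh11 and Cald1 calls. Of the 8 other settings, Acta2 kept its call in 4 and Cald1 in 3. Of the 7 fibroblast markers, 4 fell in the same comparison, and the median over all 7 was -0.25. Their part in the members' changes was not tested.

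No adhesion, LIM or signalling member passed in siNTC cells by limma. At an unadjusted p under 0.05 there were 3 of 8 adhesion genes, 1 of 5 LIM genes and 3 of 6 signalling genes. Over all genes tested there were 2606 of 11372. Among the adhesion genes, 7 of 8 values were negative, as were 5460 of all 11372 genes. Vcl stood at -0.17 ± 0.048 and Flna at -0.14 ± 0.045.

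In siGiver cells, 10 of 38 members changed with Ang II, 9 of them upward, where 16.3% of all genes passed, 9.12% higher and 7.19% lower. That is 1037 genes higher and 818 lower, a division that was 1164 and 561 with array medians subtracted. The members' median was 0.075 log2, against -0.028 over all genes tested, and none reached 1.5-fold (2% of all genes did). Rock1 had 7.67 and 7.63 in siGiver Ang II arrays, against 7.11 and 7.43 in siGiver PBS arrays. Its PBS arrays lay far apart, but below both Ang II arrays, and it rose by 0.38 ± 0.10 (adjusted p = 0.0467). Without siGiver PBS replicate 1 the Rock1 change was 0.22 and did not pass, and the call was also lost without either siGiver Ang II array. Smtn rose by 0.36 ± 0.068 (adjusted p = 0.0119) and Zyx by 0.31 ± 0.043. Zyx stood at 11.04 and 11.00 in siGiver Ang II arrays, 10.47 and 10.48 in siNTC Ang II arrays, 10.72 and 10.70 in siGiver PBS arrays and 10.44 and 10.46 in siNTC PBS arrays, so that the siGiver Ang II arrays were above all others. The other risers were Vcl (0.24), Actn4 (0.23), Cnn1 (0.22), Csrp1 (0.19), Cnn3 (0.19) and Tln1 (0.16).

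By role, 4 of 8 adhesion genes rose, and of 9 contractile markers 2 rose and 1 fell. Acta2 and Myh11 stood at 0.04 and -0.05 in siGiver cells and did not pass. Synpo2 fell by 0.33 ± 0.054 on the log2 scale (adjusted p = 0.00731), but its probe sets disagreed. A dimmer one (mean level 7.98) rose by 0.40 (passing among all probe sets, chosen after its value was seen), and averaging its probe sets ended the call. Only Zyx kept its call in every setting and without any single array of these groups, and Synpo2 and Zyx were the only members to keep it without each array. With 1 array left out the number of members called lay between 3 and 4, whichever of the 4 siGiver arrays it was.

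**Figure D4:**
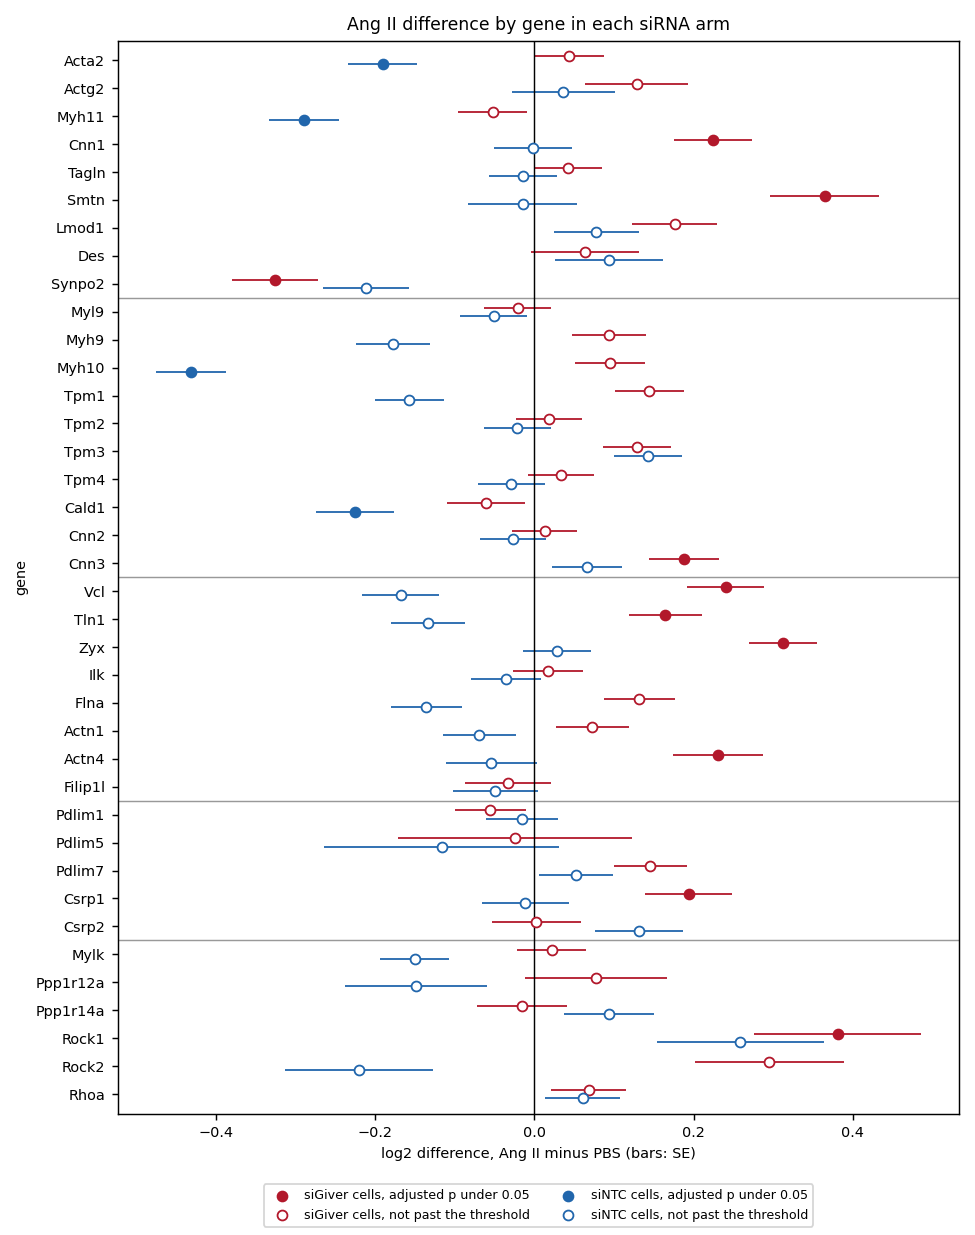
Log2 difference between Ang II and PBS for each gene in siGiver cells (red) and siNTC cells (blue); bars are SE and filled points passed at an adjusted p under 0.05. In siGiver cells 30 of 38 points lie right of zero, where 4838 of all 11372 genes were positive. In siNTC cells 27 of 38 lie left of it, where 5460 of all 11372 genes were negative.

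Whether the Ang II response differed between the arms was tested as the interaction, the Ang II difference of siGiver cells minus the one of siNTC cells. In 5 of the 38 members it passed, and all 5 were positive, where 6.22% of all genes passed, 3.35% positive and 2.87% negative. The value was positive for 32 of 38 members, with a median of 0.12, and for 5084 of 11372 genes, with a median of -0.022. None of the 5 reached 1.5-fold (1.74% of all genes did). They were Myh10 and Tpm1 of the filament proteins and Vcl, Tln1 and Zyx of the adhesion genes. No contractile marker, LIM or signalling member passed by limma. Unadjusted p was under 0.05 for 4 of 9, 1 of 5 and 2 of 6 of them, and for 2588 of all 11372 genes.

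Myh10 had the largest interaction, 0.53 ± 0.062 (adjusted p = 0.00407). Its Ang II difference was 0.10 ± 0.044 in siGiver cells and -0.43 ± 0.044 in siNTC cells, and among the values given above the siNTC PBS arrays were the highest and the siNTC Ang II arrays the lowest. Vcl stood at 13.47 and 13.42 in siGiver Ang II arrays, 12.80 and 12.81 in siNTC Ang II arrays, 13.20 and 13.21 in siGiver PBS arrays and 13.02 and 12.93 in siNTC PBS arrays. Both treatments' siGiver arrays lay above the siNTC arrays, with a wider gap under Ang II, for an interaction of 0.41 ± 0.068 (adjusted p = 0.0149). Tpm1 stood at 12.93 and 12.96 in siGiver Ang II arrays, 12.48 and 12.51 in siNTC Ang II arrays, 12.78 and 12.82 in siGiver PBS arrays and 12.66 and 12.64 in siNTC PBS arrays. Its Ang II differences, 0.14 in siGiver cells and -0.16 in siNTC cells, had opposite signs and passed in neither arm, while the interaction was 0.30 ± 0.061 (adjusted p = 0.0307). Tln1 and Zyx followed with 0.30 ± 0.065 and 0.28 ± 0.061.

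Other members had interactions of similar size that did not pass. Rock2 stood at 0.52 ± 0.13 (adjusted p = 0.0648), Smtn at 0.38 ± 0.097 (adjusted p = 0.0642), Actn4 at 0.28, Myh9 at 0.27 and Flna at 0.27. Among the 9 contractile markers the interactions ran between -0.11 for Synpo2 and the value of Smtn, with 0.24 ± 0.062 for Myh11, 0.23 ± 0.069 for Cnn1, 0.23 ± 0.062 for Acta2, 0.09 ± 0.091 for Actg2 and -0.03 ± 0.096 for Des. Only Myh10 kept its call in all 8 settings and without each of the 8 arrays. The calls for Tpm1, Tln1 and Zyx were lost whichever array was left out, and that for Vcl without siGiver Ang II replicate 1, either siNTC Ang II array or siGiver PBS replicate 1.

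For 16 members the array carries several probe sets above the filter, 38 beyond the brightest, and these were set beside it. With Ang II, the siRNA difference passed in the same direction for 14 of the 38, in the opposite direction for 0, only in the brightest for 14 and only in the dimmer one for 5. The examples here were chosen after their values were seen, with p adjusted over all probe sets. Both dimmer sets of Vcl were higher in siGiver cells with Ang II, by 1.05 and 0.82, against 0.64 for the brightest, and 4 of 6 dimmer sets of Tpm1 were higher by 0.54 to 0.96. A Pdlim5 set at a mean level of 7.42 was higher by 1.19 with Ang II and 0.52 in PBS, with an interaction of 0.67 that passed, while the brightest set stood at 0.11 and 0.02. Such sets may read different transcripts of the gene, which was not tested.

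The probe sets of Rock2 differed. Its 3 dimmer sets were higher in siGiver cells with Ang II, by 0.26, 0.21 and 0.47, and rose with Ang II within siGiver cells, by 0.38, 0.36 and 0.36. In PBS the 2 brighter ones of these were lower in siGiver cells, at -0.30 and -0.21, as the brightest was, and the dimmest stood at 0.12. Interactions were 0.56 and 0.42 where they passed and 0.35 in the dimmest. For Ang II in siGiver cells, 13 dimmer sets passed where the brightest did not, 1 passed alike and 1 (Synpo2) in the opposite direction. Several of the 13 were sets of Tpm3, which rose by 0.23 to 0.31, while its brightest, at 0.13, did not pass. No Tpm3 set passed downward.

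**Figure D5:**
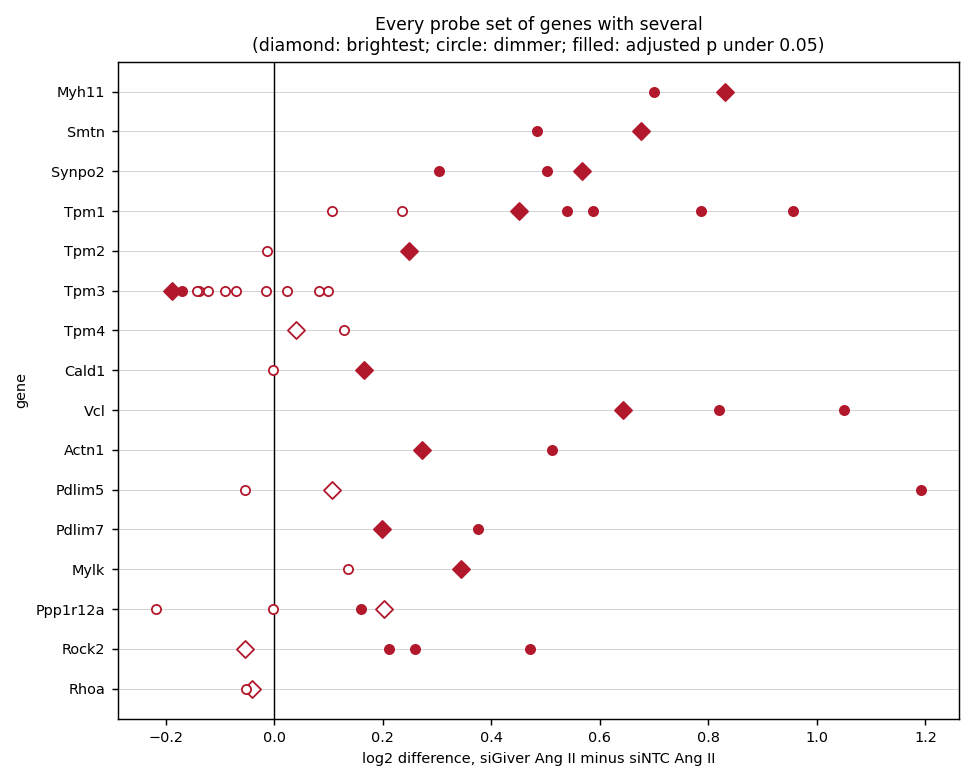
Log2 difference between siGiver Ang II and siNTC Ang II arrays for every probe set above the filter of the 16 genes with several; diamonds are the brightest, circles the dimmer ones, and filled symbols passed at an adjusted p under 0.05. Vcl, Tpm1 and Synpo2 sets all lie right of zero, and the Rock2 diamond lies near zero while its 3 circles lie right of it.

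Genes that act on the same structures were taken from lists, with the shares of all genes given above as background. The lists were chosen with earlier results of these data known, so their counts are no independent support. Of 10 measured genes on a list of SRF, its cofactors and other regulators, 8 were higher in siGiver cells with Ang II and 8 in PBS. None was lower, and the medians were 0.44 and 0.21. This SRF list held Srf, Myocd, Mrtfa, Fhl1, Fhl2, Gata6, Tead1, Elk1, Klf4 and Hey2, so it is not 1 family and does not hold activators alone. Srf itself was higher by 0.55 with Ang II and 0.17 in PBS. Its LIM-only partner Fhl2 was higher by 0.56 with Ang II and stood at 0.03 in PBS, where it did not pass. The coactivator Myocd was higher by 0.47 with Ang II and 0.54 in PBS. In the same order, Mrtfa was higher by 0.45 and 0.37 and Klf4, which represses contractile genes, by 0.43 and 0.52. Of 18 other smooth muscle genes, 10 were higher and 5 lower with Ang II and 8 higher and 4 lower in PBS, with medians of 0.21 and 0.066. Mcam was higher by 1.18 with Ang II and 0.50 in PBS, the Z-disc gene Ldb3 by 1.12 and 0.75 and the amine oxidase Aoc3 by 1.09 and 0.90. The microtubule-associated Map1b was lower in both, at -0.22 with Ang II and -0.44 in PBS.

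Of 20 actin turnover genes, 2 were higher and 8 lower with Ang II and 3 higher and 8 lower in PBS, with medians of -0.058 and -0.11. The Arp2/3 subunits Actr2 and Arpc5, which branch actin filaments, were lower, with -0.46 and -0.33 with Ang II and -0.63 and -0.48 in PBS. The formin Diaph1 was also lower, at -0.28 with Ang II and -0.70 in PBS. The cofilin Cfl2, which severs filaments, was higher with Ang II (0.33) and in PBS (0.28). Of 21 adhesion partners, 13 were higher and 3 lower with Ang II and 7 higher and 5 lower in PBS, with medians of 0.34 and 0.12. The muscle filamin Flnc was higher by 1.24 and 0.45. Pdlim2 was lower with Ang II (-0.61) and in PBS (-0.41), and Tns1 was higher (0.44 and 0.16). In the same order, the parvin Parva (-0.48 and -0.53) and the focal adhesion kinase gene Ptk2 (-0.36 and -0.46) were lower.

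Of 7 striated muscle genes above the filter, Acta1 was higher in both comparisons. Actn2 passed with Ang II, at 5.21 and 4.97 in siGiver Ang II arrays and 4.79 and 4.63 in siNTC Ang II arrays, but both siNTC values lay below the filter.

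Under Ang II in siNTC cells, none of the 10 SRF list genes and none of the 20 actin turnover genes passed by limma, with 4 and 2 at an unadjusted p under 0.05. Of the 18 other smooth muscle genes 2 rose, Mustn1 (0.32) and the calcium pump regulator Pln (0.30), and 2 fell, among them the integrin gene Itga8 (-0.39). Of the adhesion partners 1 rose, the actin assembly factor Enah (0.26), and 2 fell, the tensins Tns3 (-0.27) and Tns1 (-0.26). In siGiver cells Srf rose by 0.49 and Fhl2 by 0.69, and Gata6 was the 1 SRF list gene that fell (-0.26). Other smooth muscle genes had 3 that rose and 0 that fell, with Mustn1 at 0.88, Mcam at 0.72 and Ppp1r12b at 0.20. Adhesion partners had 6 and 0, among them Flnc (0.76), Enah (0.49) and Fermt2 (0.36).

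Of the actin turnover genes Diaph1 (0.43) and Arpc5 (0.21) rose in siGiver cells. No striated muscle gene passed for Ang II in either arm by limma, with 1 of 7 at an unadjusted p under 0.05 in siGiver cells and 3 in siNTC cells. Over all 11372 genes 3720 did so in siGiver cells and 2606 in siNTC cells. The interaction passed for 4 of 21 adhesion partners, 4 of 18 other smooth muscle genes, 2 of 10 SRF list genes and 1 of 20 actin turnover genes, all positive. They included Flnc (0.79), Fermt2 (0.31), Vasp (0.34), Mcam (0.68), Mustn1 (0.56), Ldb3 (0.37), Fhl2 (0.53), Srf (0.38) and Diaph1 (0.43).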

How the data were processed

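The 8 arrays measured total RNA. The authors deposited log2 values summarised per probe set, made with RMA and Partek per the submitters' processing notes (versions: not given in the sources used here). The RMA method equalises the arrays' distributions, so a change shared by all genes cannot be seen. Arrays have no read depth, and their number limits the precision. No scan date was used here, so batches were not tested.

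Of 31099 probe sets, 57 were controls, 20832 carried 1 symbol in GEO's annotation, 436 carried several and 9780 were not listed. Gene identifiers of 20764 matched a RefSeq table, which updated the symbols. Probe sets with a mean under the 30th percentile (4.81) were left out and the brightest per symbol was kept. One mean per group was fitted with limma 3.58.1 in R 4.3.3 (4 residual and 3.53 prior degrees of freedom), with eBayes and Benjamini-Hochberg adjustment over 11372 genes. The script was tested on simulated data.

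Values per array are given for Acta2, Myh11, Cnn1 and Tagln and, per comparison, for the 3 members with the largest change in each direction among those that passed; from each list of other genes, at most 3 of lowest p are named in a comparison, and promoters of at most 4 members with a box are shown, those with the largest siRNA difference first. The members and lists were chosen with earlier results of these data known, and 1 list is not reported here. Alternatives were 8 settings, among them a fit with the replicate number as a block, and 8 fits with 1 array left out. Same-numbered arrays did not deviate together: in the groups compared, correlations were -0.066, -0.0019, 0.091 and 0.095.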

Additional observations from a re-analysis of the deposited data

Results flagged for a closer look

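The Ang II difference of 5 members was not the same in the 2 siRNA arms, by the interaction term of the limma model (siGiver cells minus siNTC cells, log2, adjusted over all genes tested). Myh10 had an interaction of 0.53, from 0.10 in siGiver cells and -0.43 in siNTC cells. Vcl had 0.41, from 0.24 and -0.17 in the same order of arms. Tpm1 had 0.30, from 0.14 and -0.16. Tln1 had 0.30, from 0.16 and -0.13, and Zyx had 0.28, from 0.31 and 0.03. Of these, only Myh10 kept its call throughout the other settings and left-out arrays, as given above. Groups held 2 arrays each, so no search for outlying arrays within a group could be made.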

How the results depend on the processing

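The siRNA counts kept within 1.5 times of the reported 25 members with Ang II and 21 in PBS under every setting and left-out array, while the member counts for Ang II in siNTC cells and the interaction moved with most and that for Ang II in siGiver cells with fewer; the cause was not tested, beyond the fewer arrays or other number of genes that a setting itself brings. For Ang II in siNTC cells (4 members, 698 genes), 2 members were called with no filter, with the mean of probe sets, with every probe set tested, with array medians subtracted and with the replicate block, 7 with the filter at the 50th percentile and 11 with a trended, robust variance. All genes then numbered 420 with no filter, 1072 at the 50th percentile and 1496 with the trend, and leaving out 1 array gave 1 to 2 members and 227 to 358 genes. For Ang II in siGiver cells (10 members, 1855 genes), 5 members were called with no filter and 18 with the trend, where all genes numbered 2802, and leaving out 1 array gave 3 to 4 members and 866 to 1157 genes. With array medians subtracted, genes divided into 1164 higher and 561 lower, against 1037 and 818. For the interaction (5 members, 707 genes), 2 members were called with no filter, with every probe set and with the replicate block, 12 at the 50th percentile and 17 with the trend. All genes numbered 467 with no filter and 1490 with the trend, and leaving out 1 array gave 1 to 3 members and 356 to 436 genes. With 1 array left out, the lone array of its group is assumed to vary like the other groups. The block gave 25 and 20 members for the siRNA with Ang II and in PBS, and 8 for Ang II in siGiver cells; the arrays share only a number. With the mean of its probe sets, Rock2 turned to 0.22 for the siRNA with Ang II and passed, against -0.05, which did not pass. All members lay above the filter, but background itself was not measured, so a limit from it was not tested. Tagln, the brightest member, had a mean of 14.05, against 14.61 for the highest value of any array.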

Other observations

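Markers of other cell types were also compared. The macrophage marker Cd14 was lower in siGiver cells with Ang II (-0.45). Cd68 also passed, at 4.38 and 5.04 in siGiver Ang II arrays and 5.16 and 5.45 in siNTC Ang II arrays, but its levels lay near the filter and 1 siGiver array was below it, while in PBS none of 3 detected macrophage markers passed by limma and none had an unadjusted p under 0.05. None of the 3 passed for Ang II in either arm by limma (1 of 3 with an unadjusted p under 0.05 in each), and Cd14 had an interaction of -0.40. Mean levels of all 8 macrophage markers were 4.48 to 4.60 on siGiver Ang II arrays, 4.68 to 4.70 on siNTC Ang II arrays, 4.67 to 4.72 on siGiver PBS arrays and 4.59 to 4.67 on siNTC PBS arrays.

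Of the fibroblast markers, Dcn, a matrix proteoglycan that smooth muscle cells also make, was higher in siGiver cells with Ang II by 0.50, Scara5 by 0.43 and Lum by 0.20. Dcn also had an interaction of 0.39. Pdgfra fell with Ang II in both arms, with -0.48 in siGiver cells and -0.38 in siNTC cells. Among the reference genes Sdha was lower in siGiver cells with Ang II (-0.25) and in PBS (-0.20), B2m with Ang II (-0.18), and none passed for Ang II in either arm or for the interaction by limma (2 of 7 in siGiver cells, 1 in siNTC cells and 1 for the interaction had an unadjusted p under 0.05).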
